A study of Mus musculus with 12 samples.

Results

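In whole mouse skin, 9 genes that mark macrophages were followed: Adgre1, Csf1r, Cd68, Lyz2, Mrc1, Cd163, Fcgr1, Ms4a7 and Pf4. They were taken by name from the 53379 gene IDs of the deposited count tables, after these were matched to GENCODE M21, and each of the 9 names matched 1 ID. RNA was measured by bulk sequencing in 12 libraries, 3 in each of 4 groups. The groups were injured skin of Nf1-KO mice at 14 days after injury, injured skin of CTRL mice at the same time, uninjured skin of Nf1-KO mice, and uninjured skin of CTRL mice. Nf1-KO mice carried Prss56Cre, R26tdTom and Nf1flox/-, whereas CTRL mice carried Prss56Cre and R26tdTom alone. Animals of all 4 groups were 3 months old, of strain C57BL/6 & B6D2. Recombination was thus driven by the Prss56 locus, which the series title ties to boundary cap cells, and the null Nf1 allele sat in every cell of the Nf1-KO mice. An effect of that allele outside the recombined lineage and an effect of recombination within it cannot be told apart. The labels number the samples of a group but do not say that they came from separate animals, so p-values measure the spread between these samples.

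Macrophages are phagocytes that clear debris and organise repair, and skin holds a resident population that circulating monocytes join after injury. Their survival depends on the CSF1 receptor, which binds CSF1 or IL-34, and in skin keratinocytes are a known source of IL-34, which maintains the Langerhans cells of the epidermis. The genes followed here fall into general markers of the lineage (Adgre1, Csf1r), lysosomal and secreted products (Cd68, Lyz2), scavenger receptors linked to resident and repair-associated cells (Mrc1, Cd163), an immunoglobulin receptor (Fcgr1), and genes of unlike function that macrophages transcribe (Ms4a7, Pf4).

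The libraries held 8817013 to 16809687 counts, and a single member had between 5 and 5738 counts in a library. Nf1 itself averaged 11.7 ± 3.67 CPM (the count scaled by the library's total and TMM factor) in Nf1-KO injured skin against 12.6 ± 3.61 in CTRL injured skin (SD, n = 3 each). It averaged 9.50 ± 0.505 CPM in Nf1-KO uninjured skin against 11.8 ± 2.54 in CTRL uninjured skin, and the groups overlapped in both skin states. Markers of sex moved with skin state in both genotypes. Xist, transcribed from the inactive X chromosome, lay between 436 and 627 CPM of the raw total in injured libraries and between 0.709 and 2.95 in uninjured ones, so sex and injury cannot be told apart in any comparison of injured with uninjured skin. Background from 1454 olfactory and vomeronasal receptor genes was also lower in injured libraries, at 0.00224 to 0.0531 CPM per kb, against 0.0944 to 0.332 in uninjured ones.

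The DNA just before the start of these genes is shown because PU.1, the factor encoded by Spi1 that macrophages depend on, is known to bind purine-rich sites with a GGAA core. The motifs GAGGAA and AGGAAG were searched on both strands, where they can overlap by 5 bases, as in the 7 letters GAGGAAG. RefSeq promoters (GRCm38.p6) were at hand for 7 of the 9 genes. Within 250 bases before to 50 after the start, GAGGAA occurred in 5 of 7 and AGGAAG in 4 of 7, and 6 of 7 held either. Among 32851 promoters of the same length, 28.3% held GAGGAA, 35.4% held AGGAAG and 46.0% held either. In the 250 bases before the start alone, either motif occurred in 5 of 7 promoters, against 39.2% of all promoters. The 150 bases before the start of the 4 genes with a match in that stretch follow, 5′ to 3′ on the gene's own strand, with the motifs on either strand in capitals. They lie at chr2:14229242-14229391 (plus strand) for Mrc1, chr3:96293970-96294119 (minus) for Fcgr1, chr5:90772285-90772434 (plus) for Pf4 and chr10:117282322-117282471 (minus) for Lyz2. A match is a description of the letters, not a shown site and not a cause.
Mrc1: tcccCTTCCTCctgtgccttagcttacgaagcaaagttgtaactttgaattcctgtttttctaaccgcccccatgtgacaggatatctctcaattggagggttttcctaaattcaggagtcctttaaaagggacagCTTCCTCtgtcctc
Fcgr1: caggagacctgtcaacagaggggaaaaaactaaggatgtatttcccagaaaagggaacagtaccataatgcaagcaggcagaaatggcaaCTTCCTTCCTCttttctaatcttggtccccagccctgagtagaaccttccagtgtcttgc
Pf4: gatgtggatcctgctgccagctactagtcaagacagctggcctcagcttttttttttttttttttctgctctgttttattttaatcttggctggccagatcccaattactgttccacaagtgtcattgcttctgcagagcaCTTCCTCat
Lyz2: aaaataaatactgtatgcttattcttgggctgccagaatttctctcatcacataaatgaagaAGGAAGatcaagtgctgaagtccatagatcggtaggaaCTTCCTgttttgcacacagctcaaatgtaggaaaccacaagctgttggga

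Injured skin held more RNA of the macrophage genes than uninjured skin in both genotypes. In Nf1-KO mice, 9 of 9 were called higher after injury (adjusted p under 0.05 in edgeR's quasi-likelihood test), while 19.1% of the 23635 genes tested were called higher and 37.4% in either direction. In CTRL mice 8 of 9 were called higher, against 22.8% of all genes, and 55.3% in either direction. Called lower were 4345 of the 23635 genes in Nf1-KO mice and 7679 in CTRL mice. The median log2 fold change of the 9 genes was 2.92 in Nf1-KO mice and 2.15 in CTRL mice, where the median of all genes was -0.09 and -0.21. Lowest and highest libraries did not overlap between skin states for 9 of 9 genes in Nf1-KO mice and for 6 of 9 in CTRL mice, against 23.6% and 25.8% of all genes that were higher without overlap. In bulk RNA, more macrophages and more RNA per macrophage cannot be told apart.

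**Figure D1:**
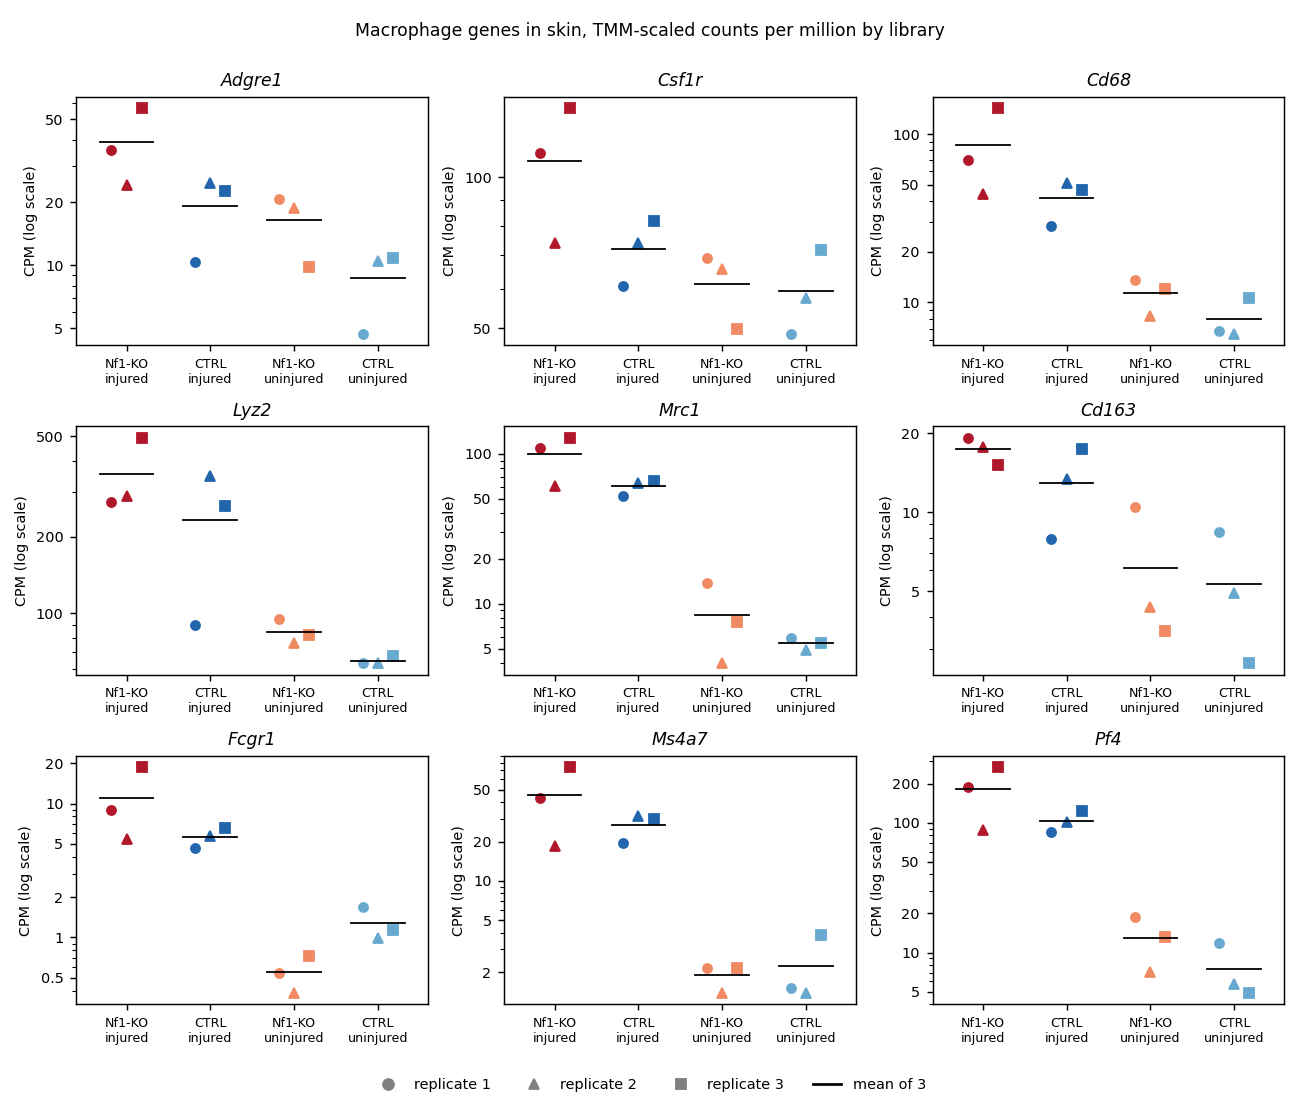
TMM-scaled CPM (log axis) of each of the 9 macrophage genes in each of the 12 libraries, by group, with the symbol giving the replicate and the bar the mean of 3. The Nf1-KO injured and CTRL injured libraries sit far above both uninjured groups for Mrc1, Pf4, Ms4a7, Cd68 and Fcgr1, and least so for Csf1r.

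The general markers of the lineage had the smallest rises. That of Adgre1 lay close to that of Cd163 (log2 1.51 ± 0.44 SE in Nf1-KO and 1.30 ± 0.44 in CTRL mice). Adgre1 (ENSMUSG00000004730) encodes the adhesion receptor known as F4/80, the classical marker of mouse tissue macrophages. It read 35.8, 24.3 and 56.8 CPM in Nf1-KO injured libraries 1 to 3, and 20.8, 18.8 and 9.85 in Nf1-KO uninjured libraries. In CTRL mice it read 10.4, 24.8 and 22.7 CPM in injured libraries and 4.70, 10.5 and 10.8 in uninjured ones. The lowest Nf1-KO injured library thus stood above every Nf1-KO uninjured one, whereas CTRL injured library 1 lay within the CTRL uninjured range. The rise was 2.36-fold in Nf1-KO mice (log2 1.24 ± 0.42 SE, adjusted p = 0.0325) and 2.22-fold in CTRL mice (log2 1.15 ± 0.42, adjusted p = 0.0336). Both calls were lost with the library's ribosomal-RNA-like share as a covariate, at adjusted p = 0.0738 in Nf1-KO mice and 0.0615 in CTRL mice. Leaving out Nf1-KO injured 1, Nf1-KO injured 3, Nf1-KO uninjured 2 or Nf1-KO uninjured 3 also ended the call in Nf1-KO mice, with adjusted p between 0.0655 and 0.114. Leaving out CTRL injured 2, CTRL injured 3 or CTRL uninjured 1 ended it in CTRL mice, with adjusted p between 0.0742 and 0.0945, and so did leaving out CTRL uninjured 1 and 2 together, the libraries of highest receptor background (adjusted p = 0.289).

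Csf1r (ENSMUSG00000024621) encodes the receptor for CSF1 and IL-34 and was the least changed of the 9 in both genotypes. It read 111, 74.1 and 137 CPM in Nf1-KO injured libraries and 68.9, 65.5 and 49.8 in Nf1-KO uninjured libraries, with no overlap. In CTRL mice it read 60.6, 73.8 and 81.7 CPM in injured libraries against 48.8, 57.6 and 71.7 in uninjured ones, and these ranges overlapped. It rose 1.75-fold in Nf1-KO mice (log2 0.81 ± 0.23, adjusted p = 0.0128) and was not called in CTRL mice (log2 0.28 ± 0.23, adjusted p = 0.319). The difference between the genotypes' injury responses was itself not called (log2 0.53 ± 0.33, adjusted p = 0.559). Exons of Csf1r share 873 bases, or 15.1% of their length, with Hmgxb3 on the opposite strand, and the kit does not mark strand, so some counts of either gene may belong to the other. The other 8 members share no exonic base with another annotated gene.

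The lysosomal and secreted products rose more. Cd68 (ENSMUSG00000018774) encodes a glycoprotein of the lysosomal membrane that is abundant in phagocytes. It read 70.6, 43.8 and 143 CPM in Nf1-KO injured libraries against 13.6, 8.35 and 12.02 in Nf1-KO uninjured ones. In CTRL mice it read 28.6, 51.0 and 46.3 CPM after injury against 6.77, 6.52 and 10.6 without it. Every injured library lay above every uninjured library of either genotype. The rise was 7.58-fold in Nf1-KO mice (log2 2.92 ± 0.40, adjusted p = 0.000131) and 5.25-fold in CTRL mice (log2 2.39 ± 0.40, adjusted p = 0.000434).

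Lyz2 (ENSMUSG00000069516) encodes lysozyme M, an enzyme that cuts bacterial cell walls and that neutrophils also make. It read 276, 291 and 494 CPM in Nf1-KO injured libraries against 94.5, 76.1 and 82.1 in Nf1-KO uninjured ones. CTRL injured libraries read 89.6, 347 and 266 CPM, and CTRL uninjured libraries 63.2, 63.4 and 67.5. Library CTRL injured 1 stood far below the other CTRL injured libraries and below Nf1-KO uninjured 1. The rise was 4.20-fold in Nf1-KO mice (log2 2.07 ± 0.38, adjusted p = 0.000862) and 3.62-fold in CTRL mice (log2 1.86 ± 0.37, adjusted p = 0.00112). The CTRL call was lost without CTRL uninjured 1 and 2 (log2 1.81, adjusted p = 0.0603).

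Lyz2 has a close copy, Lyz1, the lysozyme of intestinal Paneth cells, and reads from stretches the copies share cannot be placed. In GENCODE M21 both coding sequences are 447 bases long and differ at 22 bases (95.1% identity), with a longest shared run of 118 bases. The stretch where they differ most is shown because it is where reads can tell the genes apart: coding bases 43 to 132, counted from the start codon, with 13 differences in capitals.
Lyz2: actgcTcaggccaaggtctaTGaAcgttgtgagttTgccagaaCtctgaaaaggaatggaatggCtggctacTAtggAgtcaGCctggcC
Lyz1: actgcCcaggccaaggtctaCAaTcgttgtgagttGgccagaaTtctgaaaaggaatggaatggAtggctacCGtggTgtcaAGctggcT
Lyz1 took 0.957% to 9.82% of the counts of both genes, the highest share being in Nf1-KO uninjured 3 with 99 Lyz1 and 909 Lyz2 counts. The level of Lyz2 is therefore uncertain by what the authors' counting did with shared reads.

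The scavenger receptors parted. Mrc1 (ENSMUSG00000026712) encodes the mannose receptor CD206, used as a marker of resident and repair-associated macrophages. It read 110, 61.4 and 128 CPM in Nf1-KO injured libraries against 13.7, 3.98 and 7.59 in Nf1-KO uninjured ones. CTRL injured libraries read 52.7, 63.8 and 66.1 CPM, against 5.93, 4.91 and 5.49 in CTRL uninjured ones. The lowest injured library of either genotype was thus well above the highest uninjured one, and the 3 libraries within each CTRL group lay close together. The rise was 11.9-fold in Nf1-KO mice (log2 3.57 ± 0.37, adjusted p = 7.88e-06) and 11.2-fold in CTRL mice (log2 3.48 ± 0.38, adjusted p = 1.32e-05).

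Cd163 (ENSMUSG00000008845), the receptor that takes up haemoglobin bound to haptoglobin, changed far less. It read 19.2, 17.7 and 15.1 CPM in Nf1-KO injured libraries against 10.5, 4.37 and 3.52 in Nf1-KO uninjured ones. CTRL injured libraries read 7.91, 13.4 and 17.4 CPM against 8.37, 4.91 and 2.65 in CTRL uninjured ones. Here CTRL injured 1 lay below CTRL uninjured 1, and the replicates within each group except Nf1-KO injured skin differed by more than 2 times. The rise was 2.84-fold in Nf1-KO mice (log2 1.51 ± 0.44, adjusted p = 0.0151) and 2.46-fold in CTRL mice (log2 1.30 ± 0.44, adjusted p = 0.0206). In Nf1-KO mice the call was lost without Nf1-KO uninjured 2 (adjusted p = 0.0813), and the log2 change was 2.12 without Nf1-KO uninjured 1. Without CTRL injured 3, CTRL uninjured 2 or CTRL uninjured 3 the call in CTRL mice was lost, with adjusted p between 0.0574 and 0.0645, and without CTRL uninjured 1 and 2 the log2 change was 2.29.

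Fcgr1 (ENSMUSG00000015947) encodes the high-affinity receptor for IgG, CD64, used to tell monocyte-derived and resident macrophages from dendritic cells. It read 8.91, 5.43 and 18.6 CPM in Nf1-KO injured libraries against 0.538, 0.383 and 0.723 in Nf1-KO uninjured ones, where the counts were 6, 5 and 8. CTRL injured libraries read 4.62, 5.76 and 6.55 CPM, and CTRL uninjured libraries 1.69, 0.998 and 1.14, with 18, 13 and 18 counts. The injured groups overlapped, whereas the Nf1-KO uninjured libraries were the 3 lowest of all 12. The rise after injury was 19.8-fold in Nf1-KO mice (log2 4.31 ± 0.50, adjusted p = 9.29e-06) and 4.45-fold in CTRL mice (log2 2.15 ± 0.44, adjusted p = 0.000995). The difference between these rises was the largest among the 9 genes, 4.46-fold (log2 2.16 ± 0.66), with an unadjusted p of 0.00456 that came to 0.442 after adjustment over all genes and was not called. The same difference was positive under all 20 alternative settings in which it could be fitted, between 1.54 and 2.43 on the log2 scale, and called in none, with adjusted p from 0.134 to 0.892. At 5 to 18 counts a library, counting error is a sizeable part of the uninjured values. Per kb, Fcgr1 read 0.208, 0.148 and 0.279 CPM in Nf1-KO uninjured libraries, where receptor background was 0.131, 0.206 and 0.110. CTRL uninjured libraries read 0.654, 0.385 and 0.439, with background at 0.332, 0.263 and 0.0944. In injured libraries background was 0.0531 or less. The part of background in the rises and in their difference was not tested.

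Ms4a7 (ENSMUSG00000024672) encodes a membrane-spanning protein of the MS4A family that macrophages express. It read 43.0, 18.6 and 73.8 CPM in Nf1-KO injured libraries against 2.15, 1.38 and 2.17 in Nf1-KO uninjured ones. CTRL injured libraries read 19.5, 31.5 and 29.6 CPM against 1.50, 1.38 and 3.85 in CTRL uninjured ones. Injured and uninjured libraries were far apart in both genotypes, and in Nf1-KO mice this was the largest rise of the 9, 23.8-fold (log2 4.57 ± 0.53, adjusted p = 4.02e-05). In CTRL mice the rise was 11.7-fold (log2 3.54 ± 0.51, adjusted p = 0.000177). CTRL uninjured 3 was the highest of its group, and the CTRL log2 change was 4.32 without it and 2.81 without CTRL uninjured 1 and 2, called in both cases.

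Pf4 (ENSMUSG00000029373) encodes the chemokine CXCL4, stored in platelet granules and also transcribed by tissue macrophages. It read 190, 87.5 and 267 CPM in Nf1-KO injured libraries against 18.9, 7.05 and 13.1 in Nf1-KO uninjured ones. CTRL injured libraries read 85.0, 101 and 123 CPM against 11.8, 5.68 and 4.86 in CTRL uninjured ones. The rise was 14.0-fold in Nf1-KO mice (log2 3.80 ± 0.49, adjusted p = 0.000148) and 14.0-fold in CTRL mice (log2 3.81 ± 0.50, adjusted p = 0.00015), the most even pair among the 9 genes. Without CTRL uninjured 1 and 2 the CTRL log2 change was 4.40. Of 5 other platelet genes tested out of 8 listed, 2 were called higher in Nf1-KO mice, and 3 were called higher and 1 lower in CTRL mice. Among them Itga2b, the platelet integrin, rose 4.32-fold (adjusted p = 0.00144) and 2.43-fold (adjusted p = 0.0161) in Nf1-KO and CTRL mice. The gene called lower in CTRL mice was Gp6, the platelet collagen receptor. The summed CPM of the 8 platelet genes ran from 62.1 to 89.6 in Nf1-KO injured and 54.9 to 91.3 in Nf1-KO uninjured libraries. In CTRL mice it ran from 61.4 to 120 in injured against 46.8 to 54.7 in uninjured libraries. These sums mostly follow 1 gene, Gp1bb. It averaged 65.8 of 80.2 CPM in Nf1-KO injured and 63.0 of 67.7 in Nf1-KO uninjured skin. In CTRL mice it averaged 72.7 of 84.5 CPM in injured and 43.9 of 51.9 in uninjured skin. The part of platelets in the Pf4 counts was not tested.

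**Figure D2:**
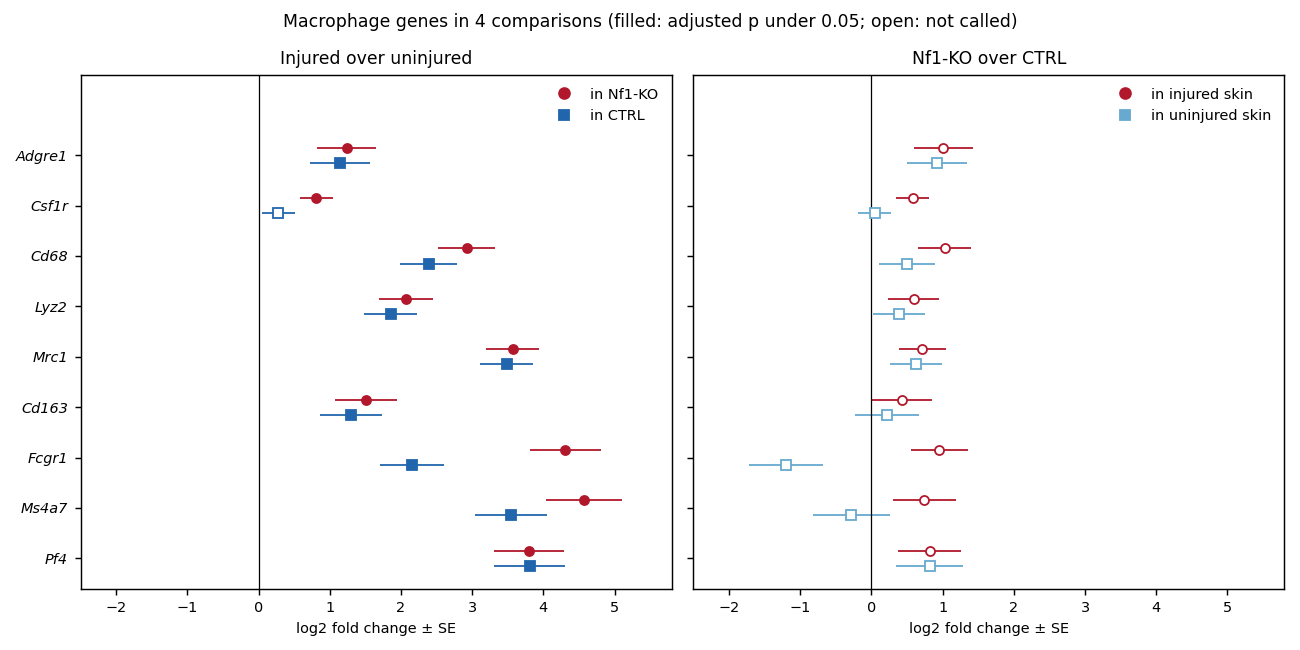
Log2 fold change with its SE for each of the 9 macrophage genes, injured over uninjured skin on the left and Nf1-KO over CTRL on the right, from edgeR over 12 libraries; filled symbols were called at an adjusted p under 0.05. Called higher in injured skin were 9 of 9 genes in Nf1-KO and 8 of 9 in CTRL mice, while no gene was called between genotypes and Fcgr1 stood at -1.20 in uninjured skin.

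The genes did not rise in proportion, so their balance shifted. Counts of Mrc1 per count of Csf1r averaged 0.917 ± 0.0804 in Nf1-KO injured against 0.137 ± 0.0703 in Nf1-KO uninjured skin (SD, n = 3 each), and 0.848 ± 0.0334 in CTRL injured against 0.0944 ± 0.0238 in CTRL uninjured skin. Pf4 per Csf1r averaged 1.61 ± 0.389 in Nf1-KO injured against 0.215 ± 0.0932 in Nf1-KO uninjured skin, and 1.42 ± 0.0712 in CTRL injured against 0.136 ± 0.0923 in CTRL uninjured skin. For Mrc1, Pf4, Ms4a7, Cd68, Lyz2 and Fcgr1, the ratio to Csf1r rose without overlap. It was higher in each injured library than in any uninjured library of the same genotype. Csf1r was the least changed of the macrophage genes followed (log2 0.81 in Nf1-KO and 0.28 in CTRL mice). Ratios to it therefore restate the unequal rises given above and are no separate sign of a shift. The share of all genes with such a ratio was not tested. Cd163 per Csf1r overlapped between skin states in both genotypes, at 0.110 to 0.239 in Nf1-KO injured and 0.0667 to 0.152 in Nf1-KO uninjured libraries, and 0.130 to 0.213 in CTRL injured against 0.0369 to 0.171 in CTRL uninjured libraries. Adgre1 per Csf1r overlapped between skin states in CTRL mice and not in Nf1-KO mice. Csf1r per count of Ptprc, the gene of the leukocyte antigen CD45, overlapped in all 4 comparisons, at 1.63 to 2.44 in Nf1-KO injured, 1.71 to 3.15 in CTRL injured, 2.26 to 2.73 in Nf1-KO uninjured and 1.75 to 3.08 in CTRL uninjured libraries. Mrc1 per Ptprc did not overlap between skin states, reading 1.52 to 2.41 in Nf1-KO injured against 0.159 to 0.450 in Nf1-KO uninjured libraries, and 1.49 to 2.72 in CTRL injured against 0.212 to 0.236 in CTRL uninjured libraries.

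**Figure D3:**
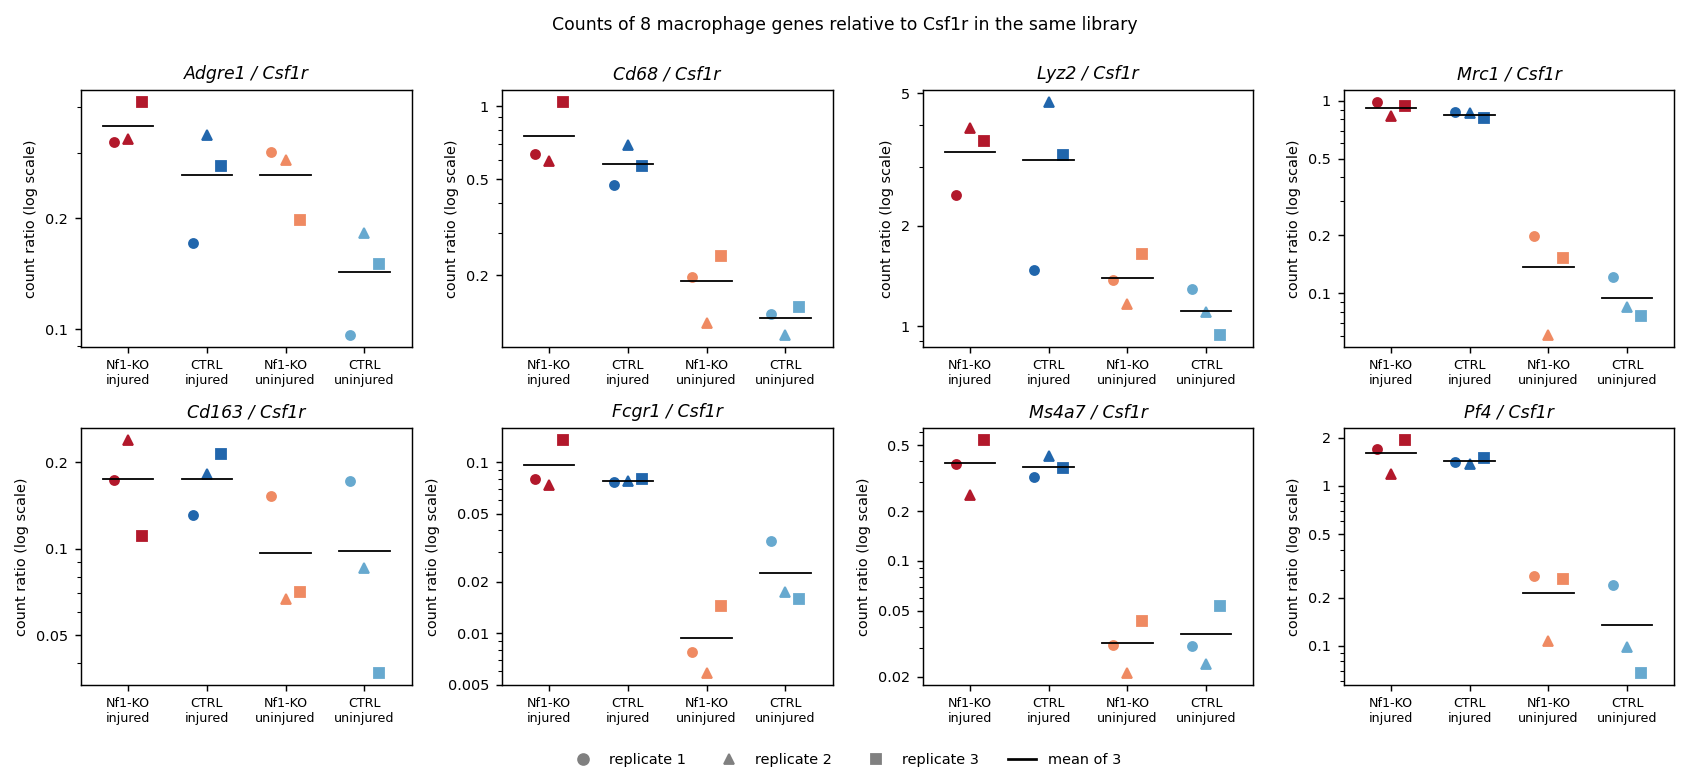
Counts of 8 macrophage genes divided by the Csf1r count of the same library (log axis), by group, with the symbol giving the replicate and the bar the mean of 3. For Mrc1 the injured libraries cluster between 0.809 and 0.987 in both genotypes, and the uninjured ones lie between 0.0608 and 0.199.

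Levels of different genes can be compared only per length of exon. On that scale Lyz2 led in all 4 groups, with 269 ± 92.5 CPM per kb in Nf1-KO injured, 178 ± 100 in CTRL injured, 64.0 ± 7.14 in Nf1-KO uninjured and 49.2 ± 1.82 in CTRL uninjured skin. Pf4 came next in each group, with mean levels of 251 ± 125 CPM per kb in Nf1-KO injured and 143 ± 26.3 in CTRL injured skin, within the spread of Lyz2. Pf4 averaged 18.1 ± 8.22 CPM per kb in Nf1-KO uninjured and 10.3 ± 5.23 in CTRL uninjured skin, where it stood beside Csf1r at 10.6 ± 1.77 and 10.3 ± 2.00. After injury Cd68 was the third in order, at 68.3 ± 40.9 CPM per kb in Nf1-KO mice and 33.4 ± 9.40 in CTRL mice, followed by Csf1r and Mrc1. Ms4a7 and Adgre1 followed in either order within their spread, and Cd163 and Fcgr1 were the lowest in both injured groups. In uninjured skin Fcgr1 was the lowest at 0.212 ± 0.0657 CPM per kb in Nf1-KO and 0.493 ± 0.142 in CTRL mice, and in CTRL mice it stood beside Ms4a7 at 0.504 ± 0.312.

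Genes around these members were described from lists of known markers and pathway genes. Of 20 other macrophage genes tested out of 22 listed, 18 were called higher and none lower after injury in Nf1-KO mice, and 15 higher and none lower in CTRL mice, with median log2 fold changes of 2.96 and 2.39. C1qa, a subunit of the complement protein C1q that macrophages secrete, was among the genes of smallest p in this list in both genotypes. It rose 17.1-fold in Nf1-KO mice (adjusted p = 2.86e-06) and 15.3-fold in CTRL mice (adjusted p = 6.18e-06). The 4 further Fc receptor genes were all called higher in both genotypes. Fcer1g, the signalling chain that Fcgr1 needs, rose 7.52-fold in Nf1-KO mice and 5.37-fold in CTRL mice. Of 11 tested relatives of the members, 7 were called higher and 2 lower in Nf1-KO mice, and 6 higher and 1 lower in CTRL mice. Ms4a4a, a neighbour of Ms4a7 in its family, rose 10.5-fold and 12.5-fold in Nf1-KO and CTRL mice (adjusted p = 2.78e-05 and 1.81e-05). In the opposite direction Adgre4, a relative of Adgre1, averaged 1.71 ± 0.986 CPM in Nf1-KO injured against 10.6 ± 6.43 in Nf1-KO uninjured skin, and 1.41 ± 0.814 in CTRL injured against 6.72 ± 1.87 in CTRL uninjured skin. It fell by 2.65 on the log2 scale in Nf1-KO mice (adjusted p = 0.00193) and fell by 2.24 in CTRL mice (adjusted p = 0.00359); it was named after its values were seen.

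The ligands of the CSF1 receptor did not move together. Il34 averaged 22.3 ± 5.19 CPM in Nf1-KO injured against 106 ± 11.0 in Nf1-KO uninjured skin, and 29.8 ± 7.29 in CTRL injured against 117 ± 8.61 in CTRL uninjured skin (SD, n = 3 each). It was 4.72-fold lower after injury in Nf1-KO mice (adjusted p = 1.85e-06) and 3.94-fold lower in CTRL mice (adjusted p = 7.15e-06), with no overlap in either. Csf1 averaged 27.8 ± 6.34 CPM in Nf1-KO injured against 17.5 ± 0.627 in Nf1-KO uninjured skin (1.59-fold, adjusted p = 0.0262), and 23.1 ± 3.59 in CTRL injured against 20.0 ± 3.76 in CTRL uninjured skin (1.15-fold, adjusted p = 0.435). The difference between genotypes was not called for Csf1 (adjusted p = 0.591). Of the 11 tested ligands and regulators of the lineage, 5 were called higher and 2 lower in Nf1-KO mice, and 5 higher and 1 lower in CTRL mice. Spi1, which encodes PU.1, rose 2.36-fold in Nf1-KO mice (adjusted p = 0.0107) and 1.92-fold in CTRL mice (adjusted p = 0.0289). Csf1 and Spi1 were named after their values were seen.

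Cd207, langerin, the marker of Langerhans cells, was also lower after injury. Langerhans cells are known to depend on Il34, but a link between the falls of Il34 and Cd207 was not tested. Cd207 averaged 7.37 ± 5.12 CPM in Nf1-KO injured against 49.0 ± 17.2 in Nf1-KO uninjured skin, and 11.3 ± 3.24 in CTRL injured against 33.5 ± 3.63 in CTRL uninjured skin. It was 6.63-fold lower after injury in Nf1-KO mice (adjusted p = 0.000295) and 2.95-fold lower in CTRL mice (adjusted p = 0.0055). Of the 10 dendritic and Langerhans cell genes, 2 were called higher and 1 lower in Nf1-KO mice, and none higher and 2 lower in CTRL mice. The list as a whole did not fall with Cd207. Its median log2 fold change was 0.42 in Nf1-KO mice, with 9 of 10 positive, and 0.20 in CTRL mice, with 6 of 10 positive. Cd207 thus fell in the libraries in which 9 of 9 macrophage genes in Nf1-KO mice and 8 of 9 in CTRL mice were called higher. Keratinocytes are a known source of Il34 and Langerhans cells lie in the epidermis, but bulk RNA does not show the cells of origin. The 6 keratinocyte genes summed to 14248 to 17359 CPM in Nf1-KO injured against 26673 to 40725 in Nf1-KO uninjured libraries. In CTRL mice they summed to 22320 to 26201 CPM in injured against 19879 to 33735 in uninjured libraries, and these ranges overlapped. The part of the epidermal share in these falls was not tested.

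Genes of alternative activation and of inflammation were both listed. Of 8 tested genes of alternative activation, 6 were called higher in Nf1-KO mice and 7 in CTRL mice, with medians of 2.69 and 2.33 on the log2 scale and none called lower. Clec10a, a lectin, rose 6.84-fold (adjusted p = 0.00026) in Nf1-KO mice and 8.73-fold (adjusted p = 0.000118) in CTRL mice. Of 9 inflammatory genes, 3 were called higher and none lower in each genotype, with medians of 1.10 in Nf1-KO and -0.39 in CTRL mice. Il1b, the gene of interleukin-1 beta, rose 9.32-fold (adjusted p = 0.000108) and 13.5-fold (adjusted p = 3.33e-05) in Nf1-KO and CTRL mice. The list did not follow it: 7 of 9 changes were positive in Nf1-KO mice and 4 of 9 in CTRL mice. In CTRL mice 3 genes were higher and 2 lower without overlap. Of all 23635 genes tested, 6100 were higher and 8657 lower without overlap. The lower ones in the list were Nos2, at 0.758 CPM injured against 2.00 uninjured, and Il12b, at 0.211 against 1.13. Neither was called, and both were named after their values were seen. Per kb they averaged 0.454 and 0.575 CPM in CTRL uninjured skin, where receptor background was 0.0944 to 0.332. The part of background in these falls was not tested. Of 8 chemokine genes, 7 were called higher in Nf1-KO mice, and 6 higher and 1 lower in CTRL mice. Ccl12, a ligand of the monocyte receptor CCR2, rose 22.7-fold in Nf1-KO mice (adjusted p = 1.35e-06) and 7.86-fold in CTRL mice (adjusted p = 4.95e-05).

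Other leukocyte lists moved in different directions. Of 5 monocyte genes, 5 were called higher in Nf1-KO mice and 2 in CTRL mice. Ccr2 itself averaged 50.2 ± 28.0 CPM in Nf1-KO injured and 20.4 ± 3.71 in CTRL injured skin, against 3.69 ± 1.25 in Nf1-KO uninjured and 4.21 ± 0.263 in CTRL uninjured skin. It rose 13.6-fold in Nf1-KO mice (adjusted p = 3.8e-06) and 4.83-fold in CTRL mice (adjusted p = 0.000211). Of 6 general leukocyte genes, 6 and 4 were called higher in Nf1-KO and CTRL mice. Of 6 mast cell genes, 5 were called higher in each genotype, and their summed CPM averaged 235 ± 77.9 in Nf1-KO injured against 14.9 ± 6.94 in Nf1-KO uninjured skin, and 274 ± 91.6 in CTRL injured against 10.8 ± 4.14 in CTRL uninjured skin. Of 6 T and natural killer cell genes tested, none was called higher and 3 lower in each genotype. Of all 23635 genes, 4345 were called lower in Nf1-KO mice and 7679 in CTRL mice. The 7 listed genes summed to 21.1 to 28.4 CPM in Nf1-KO injured against 24.7 to 69.1 in Nf1-KO uninjured libraries, and to 29.9 to 41.7 in CTRL injured against 72.5 to 77.0 in CTRL uninjured libraries. Of 4 B and plasma cell genes tested, 1 was called higher and 2 lower in Nf1-KO mice, and none higher and 3 lower in CTRL mice. Neutrophils also make Lyz2, and 9 of their genes were listed. These summed to 416 to 629 CPM in Nf1-KO injured against 4.84 to 49.8 in Nf1-KO uninjured libraries. In CTRL mice they summed to 404 to 728 CPM in injured against 5.22 to 21.1 in uninjured libraries. S100a8 and S100a9 made up most of the injured sums, averaging 272 and 204 of 503 CPM in Nf1-KO injured skin. In CTRL injured skin they averaged 275 and 220 of 515 CPM. Ly6g had no count in either injured group. Of 8 neutrophil genes tested, 5 were called higher and none lower in Nf1-KO mice, and 4 higher and 1 lower in CTRL mice. Other tissues moved with skin state as well. All 6 fibroblast genes and all 6 hair follicle genes were called higher in both genotypes, with medians of 2.89 and 6.68 in Nf1-KO and 2.60 and 7.27 in CTRL mice on the log2 scale. All 5 fat cell genes were called higher in both genotypes, as were 5 of 5 skeletal muscle genes in Nf1-KO and 4 of 5 in CTRL mice. The part of neutrophils or of tissue make-up in the macrophage results was not tested.

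**Figure D4:**
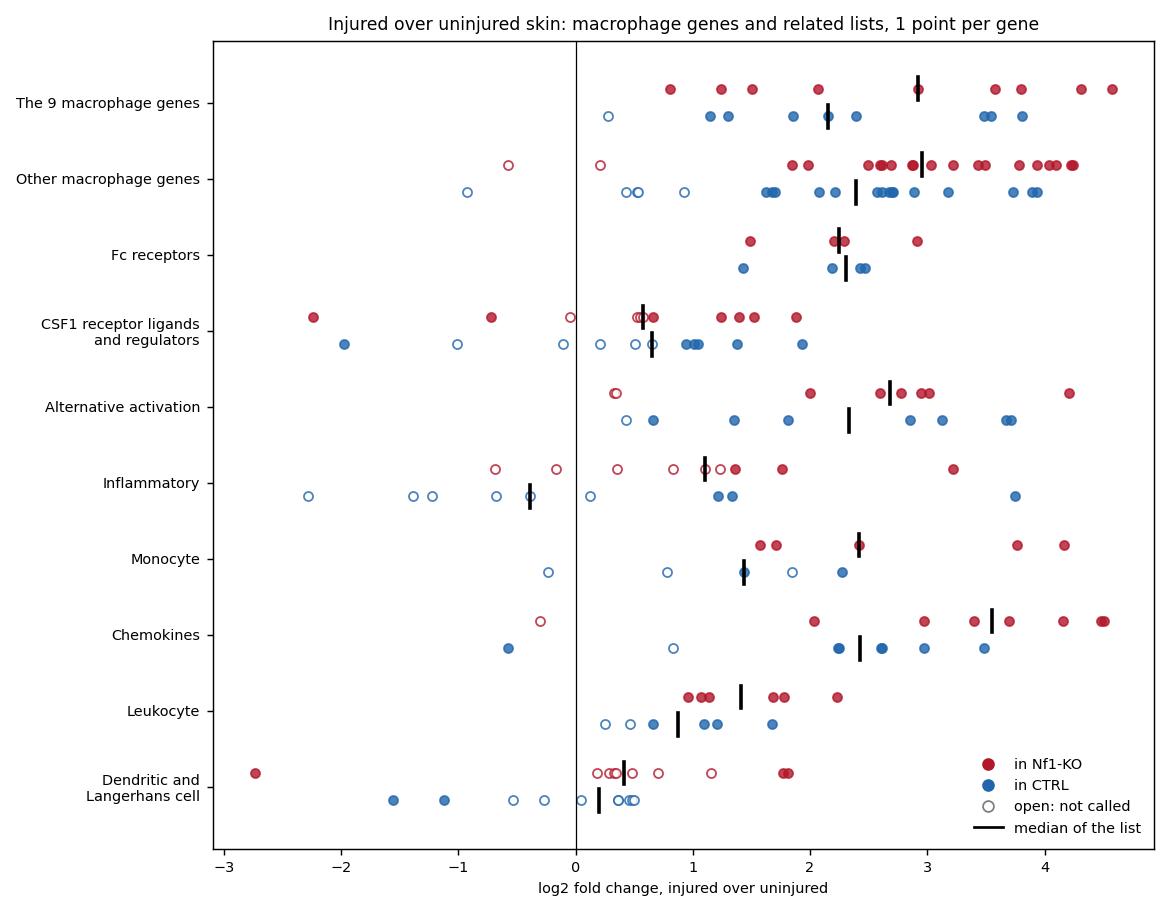
Log2 fold change of injured over uninjured skin for the 9 macrophage genes and for genes of 9 related lists, 1 point per gene, Nf1-KO above CTRL in each row; open points were not called and the black bar is the list's median. Most macrophage, Fc receptor and chemokine genes lie to the right, while Il34 (-2.24 and -1.98) and Cd207 (-2.73 and -1.56) are the points farthest left in their lists in Nf1-KO and CTRL mice.

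Between genotypes, no macrophage gene was called in injured skin. There, 0 of 9 were called, as were 0.0% of the 23635 genes tested with edgeR, although 2532 genes had an unadjusted p under 0.05 and DESeq2 called 124 and limma voom 1. All 9 genes averaged higher in Nf1-KO than in CTRL injured skin, with log2 differences from 0.43 to 1.03 and a median of 0.74, where the median of all genes was 0.12. Nf1-KO and CTRL libraries overlapped for 9 of 9, while 6.37% of all genes were higher in Nf1-KO without overlap. Cd68 averaged 85.9 ± 51.4 CPM in Nf1-KO injured against 42.0 ± 11.8 in CTRL injured skin, a 2.04-fold difference with an adjusted p of 0.372. Adgre1 averaged 39.0 ± 16.5 CPM in Nf1-KO injured against 19.3 ± 7.78 in CTRL injured skin, a 2.01-fold difference with an adjusted p of 0.410. Both were called when genes were not filtered, Cd68 at an adjusted p of 0.0180 and Adgre1 at 0.0438, and in no other setting. Csf1r (1.49-fold), Mrc1 (1.64-fold), Pf4 (1.76-fold), Ms4a7 (1.68-fold), Fcgr1 (1.93-fold), Lyz2 (1.51-fold) and Cd163 (1.34-fold) had adjusted p from 0.393 to 0.860.

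Single libraries stood apart from their group for most members. In Nf1-KO injured 2 the 9 genes lay on average 0.60 below the group's mean on the log2 scale (a deviation of -0.60), with Ms4a7 at -1.05 and Pf4 at -0.90, and in Nf1-KO injured 3 they lay 0.58 above it, with Ms4a7 at 0.91 and Cd68 at 0.90. Nf1-KO injured 1 was near the mean, at 0.02. In CTRL injured 1 they lay at -0.49, with Lyz2 at -1.17, while CTRL injured 2 and 3 were at 0.23 and 0.26. Cd163 did not follow in Nf1-KO injured skin, reading 0.03 in library 2 and -0.18 in library 3. The ribosomal-RNA-like share was 8.31%, 3.84% and 9.91% in Nf1-KO injured libraries 1 to 3 and 11.5%, 4.26% and 4.79% in CTRL injured libraries. It was thus lowest where the genes were lowest in the Nf1-KO group and highest where they were lowest in the CTRL group. Nf1-KO injured libraries 1 to 3 had counts for 26279, 31353 and 34592 genes, and CTRL injured libraries for 25188, 26375 and 28123. Receptor background was 0.00224, 0.0176 and 0.0531 CPM per kb in Nf1-KO injured libraries and 0.00225, 0.00303 and 0.00641 in CTRL injured ones. The 6 keratinocyte genes summed to 14248 to 17359 CPM in Nf1-KO injured libraries, below the 22320 to 26201 CPM of CTRL injured libraries. When that ribosomal share entered the fit as a covariate, the 9 log2 differences in injured skin ran from 0.53 for Cd163 to 1.15 for Adgre1, and 0 of 9 were called (adjusted p from 0.434 to 0.799). The part of keratinocyte RNA or of background in the macrophage values was not tested.

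**Figure D5:**
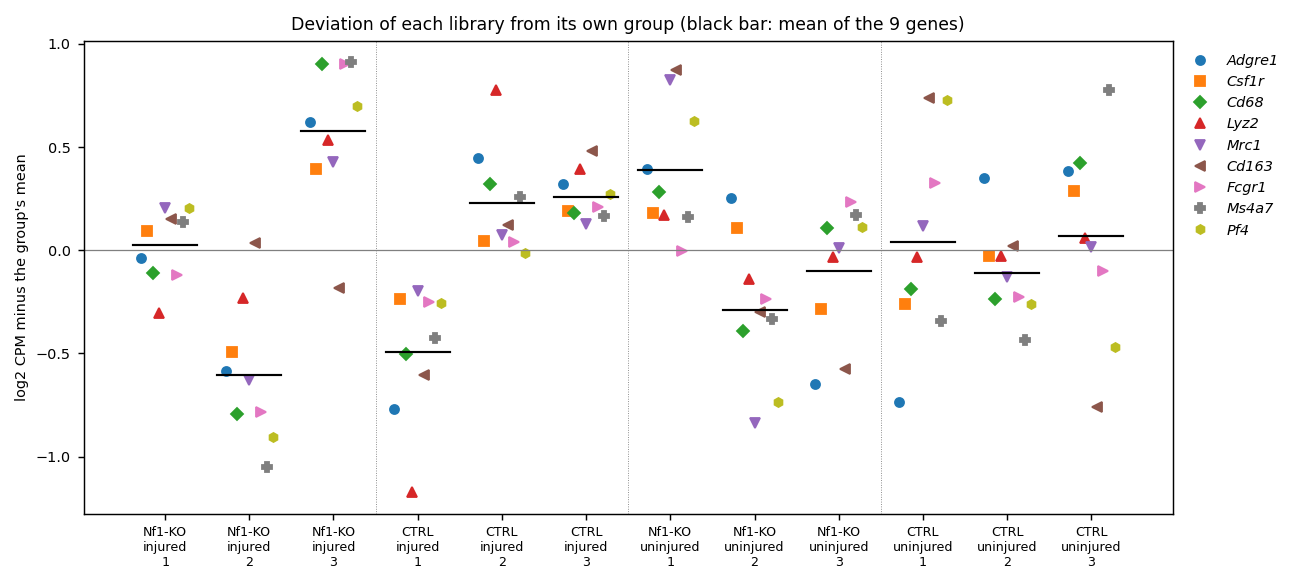
Deviation of each of the 9 macrophage genes from its own group's mean log2 CPM in each of the 12 libraries, with the black bar giving the mean of the 9. Nf1-KO injured 2 (-0.60) and 3 (0.58) and CTRL injured 1 (-0.49) stand farthest from 0, and Cd163 does not follow the other genes in the Nf1-KO injured libraries.

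In uninjured skin 0 of 9 genes were called between genotypes, against 0.0296% of all genes (7 of 23635), with 1971 genes at an unadjusted p under 0.05, 60 called by DESeq2 and 1 by limma voom. Of the 9, 7 averaged higher in Nf1-KO mice, and the median log2 difference was 0.38, where that of all genes was -0.04. Lyz2 averaged 84.2 ± 9.40 CPM in Nf1-KO uninjured against 64.7 ± 2.40 in CTRL uninjured skin. It was higher in each Nf1-KO library than in any CTRL library, as were 8.79% of all genes, and was not called (1.30-fold, adjusted p = 0.893). Fcgr1 went the other way, at 0.548 ± 0.170 CPM in Nf1-KO uninjured against 1.28 ± 0.368 in CTRL uninjured skin. It was lower in 3 of 3 Nf1-KO libraries than in any CTRL library, as were 6.04% of all genes, and was not called (2.30-fold lower, adjusted p = 0.565). Per kb, Fcgr1 read 0.148 to 0.279 CPM in Nf1-KO uninjured libraries, beside a receptor background of 0.110 to 0.206. Adgre1 averaged 16.5 ± 5.84 CPM in Nf1-KO uninjured against 8.67 ± 3.44 in CTRL uninjured skin (1.89-fold, adjusted p = 0.593) and was called when genes were not filtered (adjusted p = 0.0464). The genotype and injury comparisons share groups, so their values stand side by side and are no independent support for one another.

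No difference between the injury responses of the genotypes was called, for 0 of 9 members and for 0.0% of all genes, with 2541 genes at an unadjusted p under 0.05, 37 called by DESeq2 and 0 by limma voom. The log2 difference was 0.21 or less in size for Adgre1, Cd163, Mrc1, Pf4 and Lyz2, and stood at 0.53 for Cd68, 0.53 for Csf1r, 1.03 for Ms4a7 and 2.16 for Fcgr1. Their standard errors ran from 0.33 for Csf1r to 0.70 for Ms4a7.

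Across the 12 libraries, after each group's mean was removed, the genes most like the members' average were Itgb3 (Pearson r = 0.949), Lipa (0.948), Siglece (0.942), Fgf2 (0.940), Fcgrt (0.938), Rtl8c (0.936), Galnt16 (0.933), Gm20547 (0.931), Gm42717 (0.931) and Cd48 (0.930). Itgb3 encodes an integrin chain, Lipa the acid lipase of the lysosome, Siglece a sialic-acid-binding receptor of myeloid cells, Fcgrt the recycling receptor for IgG, and Cd48 a surface protein of leukocytes. These values describe likeness over libraries that also share depth and make-up, and Gm42717 averaged 0.452 CPM, close to counting noise. Among the members, the lowest pairwise values were those of Cd163, with r of -0.17 to Ms4a7, 0.02 to Cd68 and 0.03 to Csf1r over the same 12 libraries.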

How the data were processed

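The deposited counts were whole reads per Ensembl gene, per the file headers 1 library per column; the authors' values were whole numbers with differing totals. Per the submitters' processing notes, the tools were HTSeq 0.5.3, STAR 2.5.2b, HOMER, SAMtools and DESeq2, of unstated role, with build mm10. Neither the annotation used nor how strand was set is given in the sources used here. RNA came from an RNeasy Fibrous Tissue extraction, Smart-Seq V4 amplification of 10 ng and a Nextera XT library, per the labels, with no molecular identifiers or strand mark, so depth bounds counting error only. Of 53379 IDs, 53274 matched GENCODE M21 (GRCm38, the assembly of mm10). The 105 others held at most 0.0454% of a library's counts and stayed in the tables. In the tables, 1 column of no listed sample was not used. Library totals ran from 8817013 to 16809687 counts. Libraries within a group differed beyond sampling noise, with a chi-square per degree of freedom of 9.55 to 87.8 over 12 pairs, so each counted as 1 sample.

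All 12 libraries were fitted in edgeR 4.0.16 (TMM scaling, default filter with a count minimum of 10, 4 group means, robust quasi-likelihood F test, two-sided) after the code was tested on simulated data. Benjamini-Hochberg adjustment ran over 23635 genes, and adjusted p-values under 0.05 were called. Each SE is the log2 fold change divided by the square root of F. A mean ± SD is over 3 libraries of TMM-scaled CPM, and CPM per kb divides by the merged exon length. Alternatives used median-of-ratios (RLE) scaling, other filters, a replicate block, fewer groups, limma 3.58.1 voom, DESeq2 1.42.0, a ribosomal-RNA-like covariate and left-out libraries. Likeness, deviations from the group mean and pairwise r used log2 of TMM-scaled CPM after a small constant was added. That constant weighs most where CPM is low, as for Fcgr1 in uninjured skin. The check of same-numbered libraries used log2 CPM with a prior count of 2. Same-numbered libraries did not deviate together in every pair, so numbers were not taken as pairing.

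The members and lists were chosen with earlier results of these data known. Named genes are the 9 members, up to 3 called genes with the smallest p per list and comparison (or, in lists with no call, the 1 gene of smallest p), Nf1, Ptprc and the 10 genes most like the members. A selection of these is given. Also named, after their values were seen, were Adgre4, Csf1, Spi1, Nos2, Il12b and Ly6g.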

Additional observations from a re-analysis of the deposited data

How the results depend on the processing

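The injury rises of Cd68, Mrc1, Ms4a7, Pf4 and Fcgr1 were called in both genotypes, and those of Csf1r and Lyz2 in Nf1-KO mice, under each of the 21 settings run. Calls lost for Adgre1, Cd163 and Lyz2 stand beside their values, apart from Adgre1 in Nf1-KO mice with the replicate block (log2 1.18, adjusted p = 0.0531). That block, whose numbers share no stated source, left 8173 genes called for injury in Nf1-KO mice, 12740 in CTRL mice and 1 between genotypes in uninjured skin, and changed no other call on a member. Leaving out 1 library gave 7 to 9 members called for injury in Nf1-KO mice and 6 to 8 in CTRL mice.

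Counts of genes called moved as follows, and the cause was not tested. Nf1-KO against CTRL in uninjured skin (7 genes) gave 4 with RLE scaling, 219 with no filter, 2 with the filter of 2 CPM, 27 with only the groups compared, 1 with limma voom, 60 with DESeq2, and 0 to 12 without 1 library. In injured skin (0 genes) it gave 410 with no filter, 1 with limma voom, 124 with DESeq2, 2 with the ribosomal-RNA-like covariate, and 0 to 89 without 1 library. The interaction (0 genes) gave 236 with no filter, 37 with DESeq2, 2 without CTRL uninjured 1 and 2, 1 with the covariate, and 0 to 3 without 1 library. A fit of only the groups compared has no interaction. Injury gave 6164 genes in CTRL mice without CTRL uninjured 1 and 2, a fit with 1 library in that group that is assumed to vary like the others, and 5647 to 10020 in Nf1-KO mice without 1 library. With no filter, 2 members were called between genotypes in injured skin and 1 in uninjured skin.

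Differences near 0 changed sign. With no filter the interaction was -0.060 for Adgre1 and -0.053 for Mrc1, and with the 2 CPM filter 0.021 for Pf4. Without CTRL uninjured 1 and 2 it was -0.76 for Cd163, and Csf1r between genotypes in uninjured skin was -0.26. Without 1 library the interaction ran from -0.31 to 0.30 for Adgre1, -0.36 to 0.79 for Cd163, -0.068 to 0.79 for Cd68, -0.17 to 0.60 for Lyz2, -0.32 to 0.58 for Mrc1 and -0.58 to 0.32 for Pf4. Between genotypes in uninjured skin it ran from -0.44 to 0.72 for Cd163, -0.059 to 0.21 for Csf1r and -0.54 to 0.39 for Ms4a7.

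With DESeq2, 4155 of 10468 calls for injury in Nf1-KO mice and 5239 of 17571 in CTRL mice were higher, against 4506 of 8851 and 5393 of 13072 with edgeR. RLE scaling moved the median of all genes by -0.11 for injury in Nf1-KO mice and -0.06 in CTRL mice. DESeq2 moved it by -0.68 and -0.90, and no filter by -0.51 and -1.20, in Nf1-KO and CTRL mice. Each median is over the genes fitted in that setting, so the set of genes differs too. Fcgr1, with 5 to 18 counts in uninjured libraries, is the member most limited by depth.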
